A study of Mus musculus with 12 samples.

Results

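Protein phosphatase 1 (PP1) was followed in the left ventricle through 8 transcripts, taken by gene symbol from the 55401 genes of the count table. The choice was made with earlier results of these data known. They are the catalytic subunits Ppp1ca, Ppp1cb and Ppp1cc, the inhibitor genes Ppp1r1a, Ppp1r1b and Ppp1r2, and the glycogen-targeting subunits Ppp1r3a and Ppp1r3c. All 8 passed the filter on low counts, as did 17699 genes in all. The mice were labelled T497A, a point mutant of Prkca (protein kinase C alpha) in which a threonine is replaced by alanine, or wild type (WT). At 10 weeks of age they had either transverse aortic constriction (TAC), a ligature that narrows the arch to the width of a 27-gauge needle and makes the ventricle pump against raised pressure, or a sham operation, and tissue was taken at 11 weeks. The 4 groups were T497A after TAC, T497A after sham, WT after TAC and WT after sham, with 3 libraries each. Libraries carry numbers in the labels, with no word on whether separate animals gave them, and p-values therefore measure a spread between libraries that may be technical.

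PP1 is a serine and threonine phosphatase whose catalytic subunit finds its substrates through partner proteins. In cardiac muscle it removes phosphate from proteins that protein kinase A phosphorylates, among them phospholamban, and so opposes beta-adrenergic signalling. Inhibitor 1, the product of Ppp1r1a, blocks PP1 once protein kinase A has phosphorylated it, and protein kinase C alpha phosphorylates inhibitor 1 at another site, which weakens that block. Targeting subunits of the Ppp1r3 family hold PP1 at glycogen particles, where it activates glycogen synthase and inactivates phosphorylase. Transcript levels say nothing of phosphorylation, which was not measured in these libraries.

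Total counts ran from 58932759 to 72594085 per library. The T497A sham libraries stood apart from the other 9. Xist, the RNA of the inactive X chromosome, was at 160 to 215 CPM (the read count of a gene on a common library size, scaled by TMM factors) in T497A sham, against 0.315 to 0.751 CPM elsewhere, and the Y-linked Ddx3y was at 0.0999 to 0.396 CPM in T497A sham, against 73.6 to 108 CPM elsewhere. Sex is not in the labels, but these levels are those of female tissue in T497A sham and of male tissue in the other 9 libraries. In every comparison that uses T497A sham, the genotype or surgery therefore cannot be told apart from sex. Of 104 autosomal genes called and at least 4-fold apart between T497A sham and WT sham, 95 had the opposite sign between T497A TAC and WT TAC, 71 of them called, and 9 the same sign, 1 of them called. Between those TAC groups 35.7% of all genes tested were called, and the share of all genes with opposite signs was not computed. Chromosome 11, which carries Prkca, held 33 of the 104, and its share of all genes tested was not computed. Prkca was at 50.3, 44.7 and 43.7 CPM in T497A TAC, 35.7, 34.7 and 31.1 in T497A sham, 49.2, 50.7 and 51 in WT TAC, and 47.4, 43.5 and 42.2 in WT sham, and a point mutation cannot be seen in these counts. Whether genotype labels were exchanged in 1 of the surgery arms was not tested. If they were, every genotype difference in that arm and every interaction would mean something else. Each comparison of TAC with sham under a label would then also be a comparison between the genotypes. Groups are named here by their labels, and T497A against WT means one label against the other. The cell type label reads cardiomyocyte and the tissue label left ventricle. Summed fibroblast markers reached 933 to 1350 CPM in T497A TAC, 903 to 1070 in T497A sham, 2800 to 5520 in WT TAC and 827 to 936 in WT sham. Col1a1 was the largest part of the WT TAC sum, at a mean of 2700 CPM against 158 in WT sham. Pdgfra was at 73.3 and 54 CPM in these groups, and Lum at 283 and 66.7. The libraries are therefore read here as whole tissue.

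Per kilobase of annotated exon, the scale on which genes can be set beside each other, Ppp1ca was highest over all 12 libraries at a mean of 63.5 CPM per kb. Ppp1r3c followed at 47.7, Ppp1cb at 38, Ppp1r3a at 35.1, Ppp1r2 at 19.6 and Ppp1cc at 7.92 CPM per kb. Inhibitor 1 transcript was far below these at 0.951 CPM per kb, and Ppp1r1b lower still at 0.421. The order was not the same in every group. In WT TAC, Ppp1r3c at 63.3 ± 2.8 and Ppp1ca at 60 ± 2.53 CPM per kb (SD, n = 3 each) overlapped, and in WT sham Ppp1r3c at 38 ± 3.58 overlapped both Ppp1cb at 41.9 ± 2.09 and Ppp1r3a at 36.5 ± 2.55, which did not overlap each other. Ppp1r3a at 51.6 ± 4.17 CPM per kb stood above Ppp1cb at 42.2 ± 0.33 in T497A sham, with no overlap. Ppp1r1a and Ppp1r1b overlapped in T497A sham and were separate, Ppp1r1a higher, in the other groups. The exon length is the union over annotated transcripts, so a gene with long, little-used exons reads low.

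**Figure D1:**
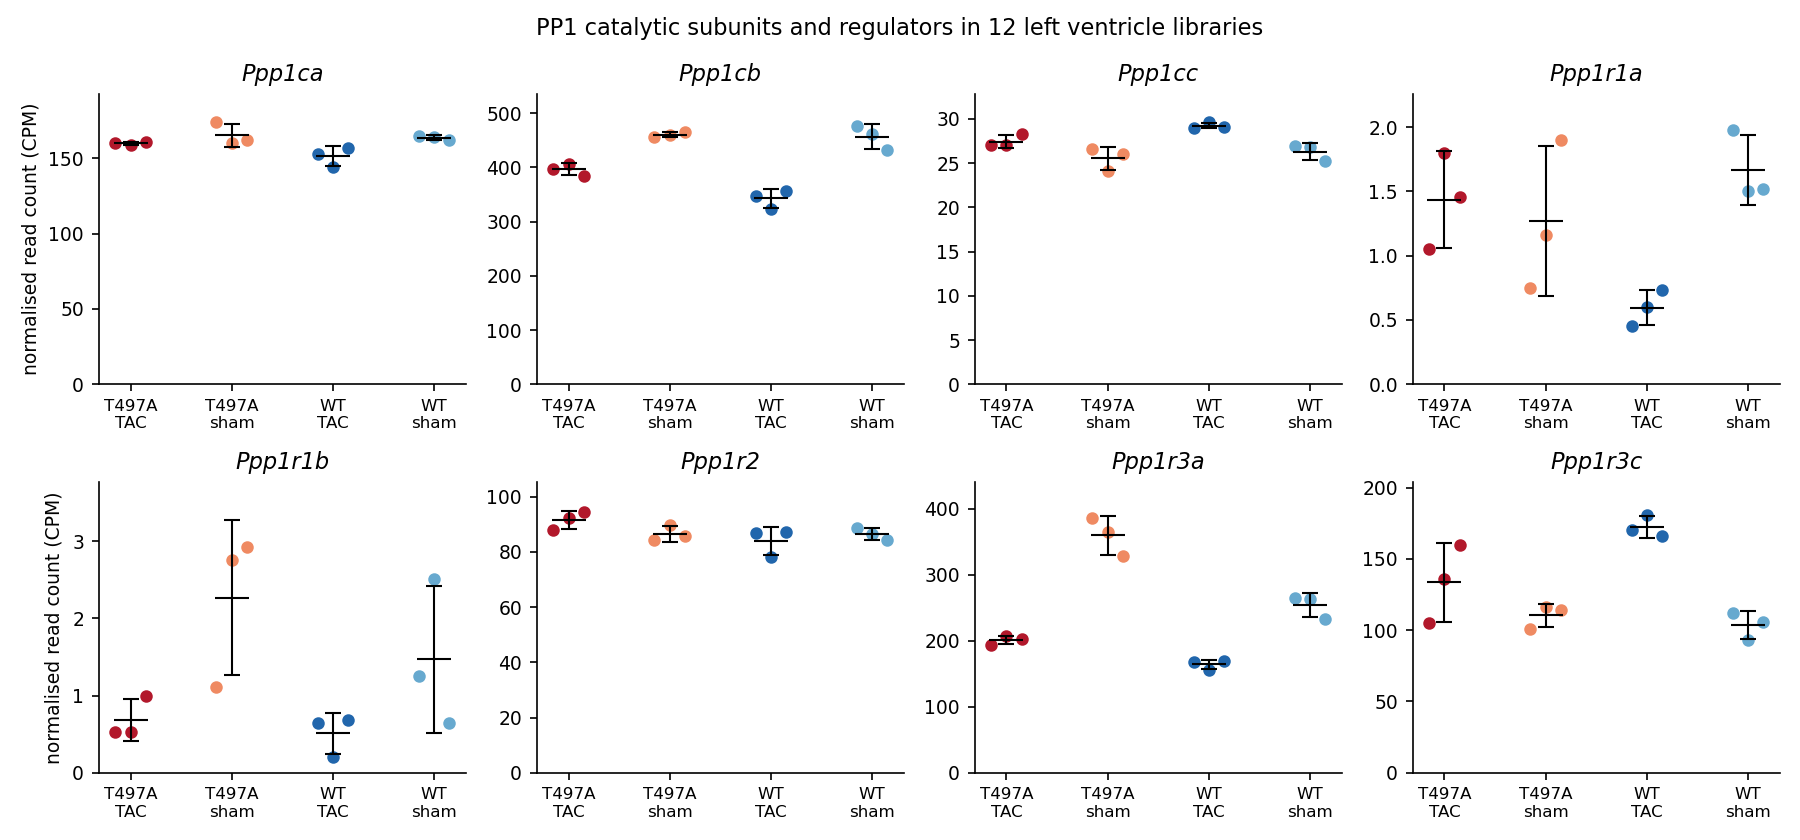
Normalised read count (CPM, linear axes from 0) of the 8 PP1 transcripts in each of the 12 libraries, by group. Points are libraries, bars the mean and SD of 3. Ppp1r1a is lowest in the 3 WT TAC libraries (0.454 to 0.731 CPM), Ppp1r3a is highest in T497A sham (328 to 386 CPM), and Ppp1r3c is highest in WT TAC (166 to 181 CPM).

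Both glycogen-targeting members moved with TAC in WT, and in opposite directions. The sequences upstream of their starts are shown for that reason, from RefSeq on GRCm38.p6. Of the 8 members, 5 had an entry in the promoter table (Ppp1cb, Ppp1cc, Ppp1r2, Ppp1r3a and Ppp1r3c). Capitals mark exact matches, on either strand, to a 10-letter form of the MEF2 motif (the second capital run of Ppp1r3a), the E-box CACGTG (Ppp1r3c) and the TATA box, 6 letters long (the first capital run of Ppp1r3a). The Ppp1r3a window is chr6:14755275-14755524 on the minus strand and the Ppp1r3c window chr19:36736654-36736854 on the minus strand.
Ppp1r3a: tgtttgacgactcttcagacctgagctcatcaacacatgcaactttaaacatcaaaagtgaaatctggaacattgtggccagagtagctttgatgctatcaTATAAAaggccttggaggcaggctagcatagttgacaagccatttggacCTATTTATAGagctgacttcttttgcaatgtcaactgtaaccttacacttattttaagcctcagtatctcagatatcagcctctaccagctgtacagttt
Ppp1r3c: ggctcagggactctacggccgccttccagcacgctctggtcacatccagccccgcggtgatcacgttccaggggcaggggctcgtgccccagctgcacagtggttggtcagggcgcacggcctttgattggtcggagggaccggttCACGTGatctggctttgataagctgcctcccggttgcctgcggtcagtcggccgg
The MEF2 motif lies 91 bases before the RefSeq start of Ppp1r3a, and 0.164% of 32851 RefSeq windows of 300 bases hold it. The TATA box matches of Ppp1r3a lie 144 and 92 bases before the start, the second inside the MEF2 motif on the other strand, and 13.6% of windows hold 1 or more. The E-box of Ppp1r3c lies 99 bases before its start, and 7.15% of windows hold one. Ppp1cb and Ppp1cc had no match to the 3 motifs, and Ppp1r2 had 2 matches to the TATA box. These matches describe letters and show no binding.

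Among the catalytic subunits, Ppp1cb fell with TAC under both labels, while edgeR called no difference for Ppp1ca in any of the 5 comparisons. Ppp1cb (ENSMUSG00000014956.15, GRCm38 chromosome 5, 32458843 to 32517433, plus strand) encodes the beta isoform, which also serves the myosin phosphatase. It stood at 398, 407 and 385 CPM in T497A TAC, 457, 460 and 465 in T497A sham, 348, 324 and 357 in WT TAC, and 477, 462 and 432 in WT sham. The TAC libraries lay below the sham libraries under both labels, and WT TAC lay below T497A TAC, with no overlap in either case. The log2 fold change of TAC over sham was -0.22 ± 0.06 (SE) in T497A (edgeR quasi-likelihood test, adjusted p = 0.015) and -0.41 ± 0.06 in WT (adjusted p = 3.9e-05). After TAC, T497A was 0.21 ± 0.06 above WT (adjusted p = 0.012), and the interaction, the response in T497A minus that in WT, missed the threshold at 0.20 ± 0.08 (adjusted p = 0.089), although DESeq2 (adjusted p = 0.045) and limma-voom (adjusted p = 0.023) called it. The WT fall was -0.08 (adjusted p = 0.18) and the difference after TAC turned to -0.04 (adjusted p = 0.54) when library totals were used without TMM factors, which shifted the median of all genes by 0.33 and -0.25. The T497A call was lost without T497A sham replicate 3 (adjusted p = 0.051) or T497A TAC replicate 3 (0.065), and was -0.20 (adjusted p = 0.04) against WT sham in place of T497A sham.

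Ppp1ca (ENSMUSG00000040385.7, chromosome 19, 4192065 to 4195420, plus strand), the alpha isoform, averaged 160 ± 1.43 CPM in T497A TAC, 165 ± 7.6 in T497A sham, 151 ± 6.37 in WT TAC and 164 ± 1.74 in WT sham (SD, n = 3 each). Its 95% intervals for the log2 change with TAC were -0.16 to 0.06 in T497A (adjusted p = 0.55) and -0.23 to 0.00 in WT (adjusted p = 0.087), and the WT fall was called by DESeq2 (-0.13, adjusted p = 0.038) and limma-voom (-0.10, adjusted p = 0.025). Without TMM factors the WT value turned to 0.22 (adjusted p = 0.0018) and the genotype difference after TAC to -0.17 (adjusted p = 0.012). Ppp1ca overlaps Rad9a on the opposite strand, which drew 4595 counts over all libraries, and the strand setting of the counting is not given in the sources used here.

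Ppp1cc (ENSMUSG00000004455.16, chromosome 5, 122158278 to 122175273, plus strand), the gamma isoform, was at 27, 27 and 28.3 CPM in T497A TAC, 26.6, 24.1 and 26 in T497A sham, 29, 29.6 and 29.1 in WT TAC, and 26.9, 26.8 and 25.2 in WT sham. It was the highest in WT TAC, with no overlap with WT sham. The rise in WT was at the edge of the threshold (0.15 ± 0.06, adjusted p = 0.049), and 16 of 22 alternatives lost it, among them the removal of each T497A TAC, WT TAC or WT sham library in turn, and of T497A sham 1 or 3 (adjusted p = 0.052 to 0.18), while it was 0.49 (adjusted p = 2.3e-05) without TMM factors. Its difference between T497A and WT after TAC was not called (-0.09 ± 0.06, adjusted p = 0.27), except without TMM factors (-0.34, adjusted p = 0.00078). The near-identical retrocopy Ppp1ccb drew 1235 counts in all, and reads shared between the copies cannot be assigned.

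Ratios within a library do not move with the scaling between libraries. Of the summed catalytic transcripts per kb of exon, Ppp1cb made up 33.7 ± 0.858% in T497A TAC, 36.7 ± 1.17% in T497A sham, 31.4 ± 0.332% in WT TAC and 36.6 ± 0.864% in WT sham (SD, n = 3 each). Ppp1ca made up 58.8 ± 0.654%, 56.9 ± 1.1%, 60 ± 0.108% and 56.7 ± 0.926% of the sum in the same order of groups. Ppp1cc made up 7.44 ± 0.213%, 6.48 ± 0.201%, 8.55 ± 0.427% and 6.71 ± 0.0856%. The TAC and sham libraries did not overlap in any of these shares under either label, nor did T497A TAC and WT TAC. The shares are parts of the same sum, so a lower Ppp1cb share raises the rest, and the comparisons are not independent. The Ppp1ca share was highest in WT TAC although its mean CPM was lowest there (151, against 164 in WT sham). An exact two-sided permutation test of 3 against 3 libraries cannot go below 0.1, the value reached in these 9 comparisons, and none passed after adjustment over 16 ratio tests (adjusted p = 0.15).

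**Figure D2:**
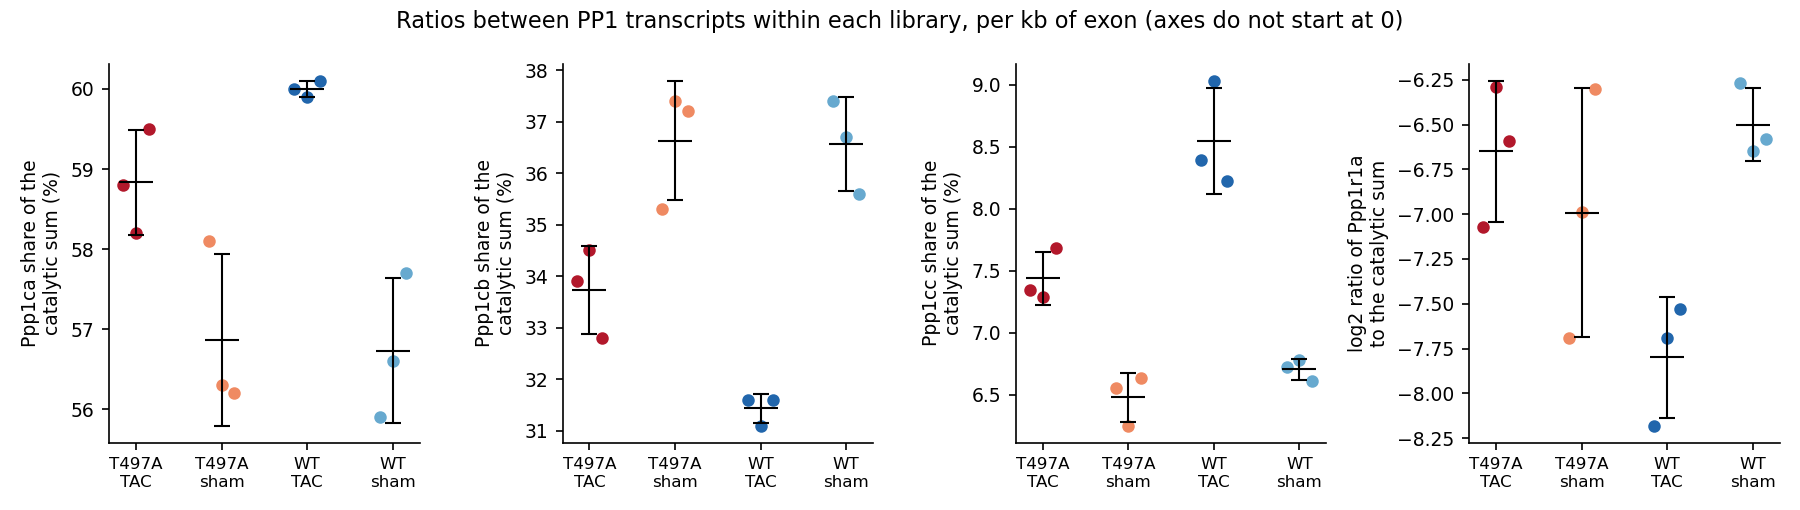
Shares of the 3 catalytic subunits in their summed transcripts (%, left 3 panels) and log2 ratio of Ppp1r1a to that sum (right panel), per kb of exon, in each library by group; bars are the mean and SD of 3 and the axes do not start at 0. Ppp1cb has its lowest shares in WT TAC (31.1 to 31.6%), and the Ppp1r1a ratio its lowest values there (-8.18 to -7.53).

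Inhibitor 1 was the member whose response to TAC differed between the labels in the edgeR test with TMM factors. DESeq2 and limma-voom also called the interaction of Ppp1cb and Ppp1r3c. Without TMM factors 5 members were called, where 6869 of all genes were (5218 with TMM factors). Ppp1r1a (ENSMUSG00000022490.7, chromosome 15, 103530279 to 103538003, minus strand) had 1.05, 1.8 and 1.46 CPM in T497A TAC, 0.751, 1.16 and 1.9 in T497A sham, 0.454, 0.604 and 0.731 in WT TAC, and 1.98, 1.5 and 1.52 in WT sham. The WT TAC libraries lay below all libraries of the other groups, while T497A TAC lay within the range of T497A sham. In WT the transcript fell with TAC by 1.48 ± 0.34 log2 units (edgeR, adjusted p = 0.002, 95% interval -2.20 to -0.76). In T497A the change was 0.18 ± 0.33 (adjusted p = 0.74), with an interval of -0.52 to 0.88. The interaction was 1.66 ± 0.47 (adjusted p = 0.016), and after TAC the transcript was higher in T497A than in WT by 1.26 ± 0.34 (adjusted p = 0.0089).

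These values rest on 34 to 117 reads per library. The interaction uses the T497A sham group, in which Ppp1r1a ran from 0.751 to 1.9 CPM. The comparisons of WT TAC with WT sham and of T497A TAC with WT TAC do not use it, and in a fit without that group they remained called (adjusted p = 0.00083 and 0.004). Against WT sham in place of T497A sham, the T497A TAC value was -0.22 (adjusted p = 0.74). The WT fall, the difference after TAC and the interaction stayed called under all alternatives run, with ranges of -1.73 to -1.15, 1.02 to 1.66 and 1.37 to 2.07. The log2 ratio of Ppp1r1a to the catalytic sum was -6.65 ± 0.392 in T497A TAC, -6.99 ± 0.695 in T497A sham, -7.8 ± 0.339 in WT TAC and -6.5 ± 0.2 in WT sham (SD, n = 3 each). The exact permutation p was 0.1 both for WT TAC against WT sham and for T497A TAC against WT TAC, the smallest it can give.

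Summed cardiomyocyte markers were lowest in WT TAC, as Ppp1r1a and Ppp1cb were. They reached 54400 to 58900 CPM in T497A TAC, 66300 to 67800 in T497A sham, 33300 to 38700 in WT TAC and 61000 to 67900 in WT sham. With TAC 4 of 7 fell in T497A, where 11.4% of all genes fell, and 6 of 7 in WT, where 24% fell. Myh6 was the largest part of the sum, at a mean of 30400 CPM in WT sham and 14000 in WT TAC, while Actc1 was at 9120 and 9020. All 6 macrophage markers rose with TAC in WT, where 25.9% of all genes rose. Their sum was 470 to 773 CPM in WT TAC, against 225 to 267 in WT sham. In T497A 2 of 6 rose, where 12.9% of all genes rose, and the sum was 319 to 342 CPM after TAC, against 253 to 297 after sham. In whole tissue, fewer cardiomyocytes and less of a transcript per cardiomyocyte cannot be told apart, and the part of these shifts in the PP1 results was not tested.

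Ppp1r1b (ENSMUSG00000061718.12, chromosome 11, 98348404 to 98357796, plus strand) encodes DARPP-32, the relative of inhibitor 1 best known from striatal neurons. It was low and uneven, with 0.531, 0.523 and 1 CPM in T497A TAC, 1.11, 2.76 and 2.93 in T497A sham, 0.641, 0.21 and 0.681 in WT TAC, and 1.26, 2.51 and 0.642 in WT sham. TAC libraries lay below sham libraries in T497A but overlapped with them in WT. The falls were large and close to the threshold, at -1.72 ± 0.55 in T497A and -1.52 ± 0.57 in WT (adjusted p = 0.041 in each). The T497A call was lost without T497A sham 2 (adjusted p = 0.1) or 3 (0.12), T497A TAC 1 (0.13) or 2 (0.14), WT sham 1 (0.058), or WT TAC 1 (0.057) or 3 (0.05), and against WT sham the value was -1.09 (adjusted p = 0.25). The WT call was lost without WT sham 1 (adjusted p = 0.064) or 2 (-0.90, adjusted p = 0.21), WT TAC 1 (0.063), 2 (0.13) or 3 (0.052), or T497A TAC 1 (0.054) or 2 (0.052). It was also lost with limma-voom (-1.05, adjusted p = 0.06), without TMM factors (0.077) and with only the groups compared in the fit (0.053), and without the filter on low counts both calls were lost (adjusted p = 0.13 in each). No difference by genotype was called, with 95% intervals of -0.54 to 1.79 after sham and -0.82 to 1.67 after TAC. The gene lies 9.58 Mb from Prkca.

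Of the atrial markers, Myl7 was set beside Ppp1r1b by library. Myl7, the atrial myosin light chain, was at 9.7, 12.8 and 9.47 CPM in T497A TAC, 63.6, 74.4 and 261 in T497A sham, 35.7, 16.6 and 45.1 in WT TAC, and 55.7, 84.5 and 6.64 in WT sham. WT sham replicate 3, with the least Myl7 of all 12, had the least Ppp1r1b of the 6 sham libraries, and T497A sham replicate 3, with the most Myl7, had the most. Within T497A TAC the order was not kept, and replicate 3 had the most Ppp1r1b and the least Myl7. Across the 12 libraries Pearson's r of the log2 values was 0.74 and Spearman's rho 0.76, a description over libraries that share groups. The same r for Ppp1r1a was 0.08. No r was computed for the other atrial markers. Mean Myl4, Sln and Bmp10 were highest in T497A sham, as mean Ppp1r1b was. Mean Nppa and Nr2f2 were highest in WT TAC (2600 and 22 CPM), where mean Ppp1r1b was lowest. Bmp10 was at 0 in WT sham and reached 33.4 CPM in a T497A sham library. Of 6 atrial markers 5 were tested. With TAC in T497A, 3 fell and 1 rose, where 11.4% of all genes fell and 12.9% rose. In WT, 2 rose and 0 fell, where 25.9% of all genes rose and 24% fell. The summed level, which Nppa dominates after TAC, was 247 to 527 CPM in T497A TAC, 286 to 950 in T497A sham, 2560 to 2860 in WT TAC and 117 to 286 in WT sham. Of the adipocyte markers, Adipoq was set beside Ppp1r1b in the same way. Adipoq, the gene of adiponectin, was at 0.0607, 0.215 and 0.0572 CPM in T497A TAC, 0.686, 1.74 and 2 in T497A sham, 0.815, 0.0525 and 0.706 in WT TAC, and 0.682, 0.367 and 0.0338 in WT sham. Within WT TAC, WT sham and T497A sham, Adipoq was lowest in the library with the least Ppp1r1b of that group. In T497A TAC it was lowest in replicate 3, which had the most Ppp1r1b of that group. WT TAC replicates 1 and 3 had more Adipoq than any WT sham library, while mean Ppp1r1b was 0.511 CPM in WT TAC and 1.47 in WT sham. Of 5 adipocyte markers, 3 fell with TAC in T497A, where 11.4% of all genes fell, and 0 in WT, where 24% fell. Their sum, mostly Fabp4, was 518 to 575 CPM in T497A TAC, 457 to 569 in T497A sham, 561 to 608 in WT TAC and 582 to 617 in WT sham. The part of atrial or fat tissue in the Ppp1r1b values was not tested.

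**Figure D3:**
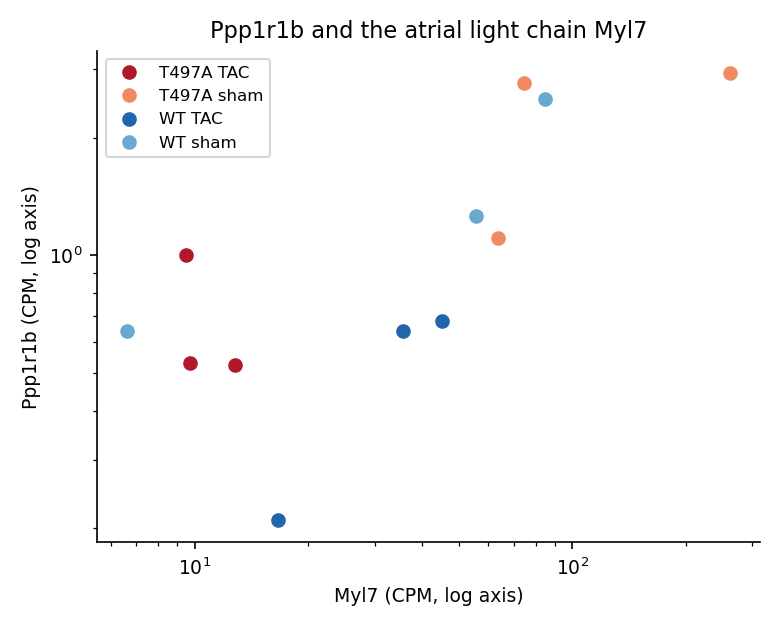
Ppp1r1b against Myl7, both in CPM on log axes, with 1 point for each of the 12 libraries, coloured by group. The T497A TAC libraries have Myl7 of 9.47 to 12.8 CPM and Ppp1r1b of 0.523 to 1 CPM, and the library with the most Myl7 (261 CPM, T497A sham) has the most Ppp1r1b (2.93 CPM).

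Ppp1r2 (ENSMUSG00000047714.14, chromosome 16, 31251537 to 31275277, minus strand) encodes inhibitor 2, which binds the catalytic subunit directly. It averaged 91.6 ± 3.34 CPM in T497A TAC, 86.6 ± 2.86 in T497A sham, 84.1 ± 5.06 in WT TAC and 86.6 ± 2.11 in WT sham (SD, n = 3 each). No comparison was called, and the 95% intervals of the log2 change with TAC were -0.04 to 0.20 in T497A and -0.16 to 0.08 in WT. Without TMM factors the WT value was 0.29 (adjusted p = 0.00015) and the T497A minus WT difference after TAC turned to -0.13 (adjusted p = 0.046). The Ppp1r2 pseudogenes drew at most 88 counts each over all libraries.

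Ppp1r3a fell with TAC under both labels and was higher in T497A than in WT after either operation. Ppp1r3a (ENSMUSG00000042717.5, chromosome 6, 14713977 to 14755274, minus strand) encodes the striated-muscle subunit that anchors PP1 to glycogen and the sarcoplasmic reticulum. It stood at 194, 207 and 203 CPM in T497A TAC, 386, 365 and 328 in T497A sham, 168, 156 and 169 in WT TAC, and 265, 264 and 233 in WT sham. None of the 4 groups overlapped. The log2 change with TAC was -0.84 ± 0.07 in T497A (edgeR, adjusted p = 3e-06) and -0.63 ± 0.07 in WT (adjusted p = 4.9e-06), the WT value being -0.30 without TMM factors. T497A exceeded WT by 0.50 ± 0.07 after sham (adjusted p = 0.00082) and by 0.29 ± 0.07 after TAC (adjusted p = 0.0048), the last being 0.04 (adjusted p = 0.63) without TMM factors. The interaction was not called (-0.21 ± 0.10, adjusted p = 0.13), although it was without TMM factors (-0.51, adjusted p = 0.00098). Set against WT sham instead of T497A sham, T497A TAC was lower by -0.33 (adjusted p = 0.0097), so the larger part of the T497A fall rests on the high level of the T497A sham libraries.

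Ppp1r3c rose with TAC in WT. Ppp1r3c (ENSMUSG00000067279.3, chromosome 19, 36731731 to 36736653, minus strand) encodes PTG, a subunit that brings PP1 together with glycogen synthase and phosphorylase. It was at 105, 136 and 160 CPM in T497A TAC, 101, 116 and 114 in T497A sham, 170, 181 and 166 in WT TAC, and 112, 92.9 and 106 in WT sham. The WT TAC libraries were above all others, and T497A TAC spread from the sham range nearly to that of WT TAC. The rise was 0.74 ± 0.13 in WT (adjusted p = 0.00039) and 0.28 ± 0.13 in T497A (adjusted p = 0.13, 95% interval 0.00 to 0.56). The T497A value depended on the TAC libraries, being 0.43 (adjusted p = 0.0054) without replicate 1 and 0.13 (adjusted p = 0.45) without replicate 3. After TAC it was lower in T497A than in WT (-0.37 ± 0.13, adjusted p = 0.039). That call was lost without T497A TAC 1 (-0.22, adjusted p = 0.1) or 2 (0.096), WT TAC 1 (0.079), 2 (0.16) or 3 (0.068), T497A sham 2 (0.052) or 3 (0.055), or WT sham 3 (0.056), and in the fit without the T497A sham group (adjusted p = 0.057). The interaction was not called with edgeR (-0.46 ± 0.18, adjusted p = 0.076), but was with DESeq2 (adjusted p = 0.04) and limma-voom (adjusted p = 0.019), and without T497A TAC replicate 3 (-0.60, adjusted p = 0.009).

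Counted together, 3 of the 8 members were called in T497A after TAC against sham, all lower (Ppp1cb, Ppp1r1b and Ppp1r3a), where 24.4% of all genes tested were called, 12.9% higher and 11.4% lower. In WT, 6 of 8 were called, 2 higher and 4 lower, where 49.9% of all genes were called, 25.9% higher and 24% lower. Between T497A and WT after sham, 1 of 8 (Ppp1r3a) was called, as higher, where 5.79% of all genes were, 2.99% higher and 2.8% lower. After TAC, 4 of 8 were called, 3 higher in T497A and 1 lower, where 35.7% of all genes were, 17.8% higher and 17.9% lower. The interaction called 1 of 8 (Ppp1r1a, positive), where 29.5% of all genes were called, 15.3% positive and 14.2% negative. Beside these shares the counts are not a result about the 8 as a set. The groups did not overlap for 4, 6, 1 and 7 members in the first 4 comparisons, against 40.6%, 60.2%, 26.4% and 49.5% of all genes. The median log2 difference of the members was 0.02, -0.26, 0.01, 0.17 and 0.01 in the 5 comparisons, and that of all genes 0.00, 0.03, 0.00, -0.02 and -0.01. Without T497A sham replicate 3, 1 member was called in T497A after TAC against sham, where 3174 of all genes were (4315 with every library).

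**Figure D4:**
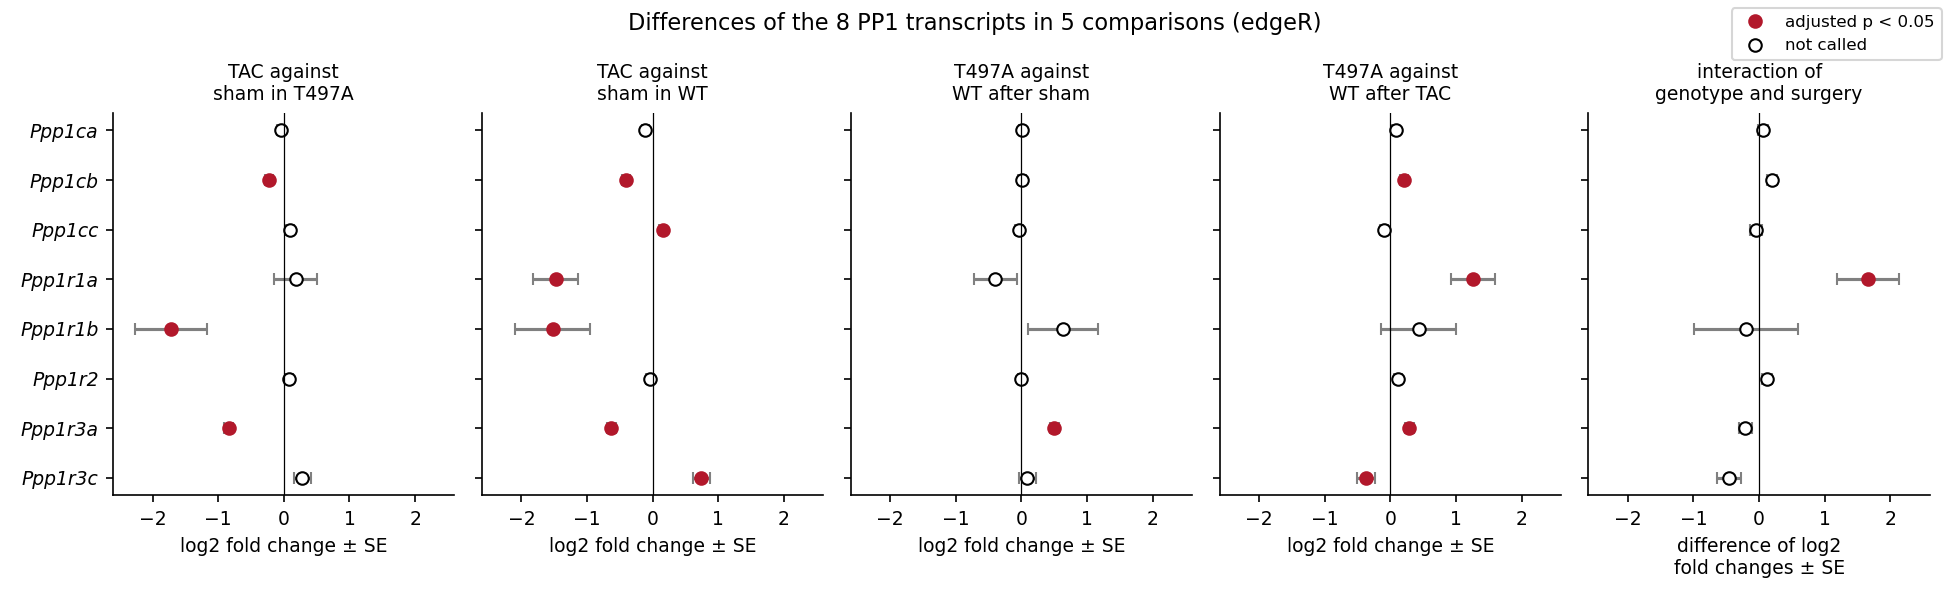
Log2 fold change with SE of the 8 members in each of 5 comparisons (edgeR, n = 3 libraries per group), filled where the adjusted p was under 0.05. Ppp1r1a shows -1.48 in WT and 0.18 in T497A, and is the filled point of the interaction (1.66); Ppp1r3a is below 0 after TAC under both labels.

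Other proteins that inhibit PP1 were examined as a list of 8, of which 5 passed the filter. Ppp1r14c moved in opposite directions with TAC under the 2 labels. Its product, KEPI, is an inhibitor whose potency is raised when protein kinase C phosphorylates it. It had 220, 212 and 223 CPM in T497A TAC, 133, 175 and 136 in T497A sham, 159, 138 and 167 in WT TAC, and 222, 226 and 211 in WT sham. T497A TAC and WT sham were high and overlapped, and T497A sham and WT TAC were low and overlapped. It rose with TAC in T497A (0.56 ± 0.10, edgeR adjusted p = 0.00077) and fell in WT (-0.51 ± 0.09, adjusted p = 0.00045), with an interaction of 1.07 ± 0.13 (adjusted p = 7.4e-05). The T497A rise was -0.01 (adjusted p = 0.97) against WT sham in place of T497A sham, since the T497A sham libraries were 0.57 ± 0.10 below WT sham (adjusted p = 0.0029), and the WT fall was -0.18 (adjusted p = 0.077) without TMM factors. T497A TAC was 0.50 ± 0.09 above WT TAC (adjusted p = 0.00097).

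The related Ppp1r14b rose with TAC in WT (0.43 ± 0.09, adjusted p = 0.00098) and was lower in T497A than in WT after TAC (-0.45 ± 0.09, adjusted p = 0.0013). Ppp1r14a, which encodes the smooth-muscle inhibitor CPI-17, rose in T497A (0.62 ± 0.18, adjusted p = 0.022). That call was lost against WT sham (0.42, adjusted p = 0.16) and without T497A sham 1 (adjusted p = 0.081) or T497A TAC 1 (0.093) or 2 (0.1). In all, 2 of the 5 were called with TAC in T497A, both higher, where 24.4% of all genes were called, and 2 of 5 in WT, 1 higher and 1 lower, where 49.9% were. The list medians were 0.15 and -0.14.

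The other glycogen-targeting subunits (5 listed, 5 tested) showed no call with TAC in T497A by edgeR (1 of 5, Ppp1r3e, at an unadjusted p under 0.05), where 24.4% of all genes were called, and 2 falls in WT, where 49.9% were, with medians of 0.10 and -0.40. Ppp1r3d averaged 19.8 ± 4.64 CPM in T497A TAC, 20.9 ± 2.43 in T497A sham, 14.8 ± 1.19 in WT TAC and 24.2 ± 2.45 in WT sham, and fell in WT (-0.71 ± 0.15, adjusted p = 0.0013). Ppp1r3b, the subunit best known from liver, fell in WT as well (-0.57 ± 0.19, adjusted p = 0.032), a call lost when each WT library was left out in turn (adjusted p = 0.052 to 0.093) or without TMM factors (-0.23, adjusted p = 0.32). Both were higher in T497A than in WT after TAC, at 0.42 ± 0.15 for Ppp1r3d and 0.58 ± 0.19 for Ppp1r3b (adjusted p = 0.041 and 0.04). Without TMM factors neither was called (0.17 and 0.32, adjusted p = 0.35 and 0.19). The Ppp1r3d call also ended without each WT TAC library in turn, WT sham 2 or 3, T497A sham 1, or T497A TAC 1 or 2 (adjusted p = 0.05 to 0.19), and the Ppp1r3b call without each WT library in turn, T497A sham 1, or T497A TAC 2 or 3 (adjusted p = 0.054 to 0.13). Ppp1r3c thus rose in WT while Ppp1r3a, Ppp1r3b and Ppp1r3d fell.

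Of 22 glycogen enzymes and regulators, 21 were tested. With TAC, 0 rose (also 0 at an unadjusted p under 0.05 by edgeR) and 6 fell in T497A (median -0.09), where 12.9% of all genes rose and 11.4% fell. In WT 4 rose and 13 fell (median -0.34), where 25.9% of all genes rose and 24% fell. After TAC, 10 were higher and 3 lower in T497A than in WT, against 17.8% and 17.9% of all genes, and 7 interactions were positive and 2 negative, against 15.3% and 14.2%. Pygm, muscle glycogen phosphorylase, which PP1 inactivates, had 1180, 1070 and 1120 CPM in T497A TAC, 1390, 1360 and 1390 in T497A sham, 636, 550 and 666 in WT TAC, and 1320, 1310 and 1350 in WT sham. WT TAC lay far below the rest, and the interaction was 0.81 ± 0.10 (edgeR, adjusted p = 7.1e-05). Epm2a, the glycogen phosphatase laforin, fell in WT (-0.85 ± 0.06, adjusted p = 1.5e-07), with an interaction of 0.87 ± 0.09 (adjusted p = 1.7e-05). Gys1, muscle glycogen synthase, which PP1 activates, had 125, 129 and 139 CPM in T497A TAC, 172, 168 and 181 in T497A sham, 106, 98.6 and 109 in WT TAC, and 154, 142 and 153 in WT sham. Its fall in T497A (-0.41 ± 0.06, adjusted p = 0.00031) was -0.19 (adjusted p = 0.062) against WT sham, and it fell in WT too (-0.52 ± 0.06, adjusted p = 8.2e-06). The phosphorylase kinase subunits Phkg1 (-1.58 ± 0.24, adjusted p = 0.0012) and Phka1 (-0.80 ± 0.08, adjusted p = 8.5e-06) fell in T497A, and were -0.95 (adjusted p = 0.034) and -0.44 (adjusted p = 0.0036) against WT sham. In WT, Phkg1 fell as well (-2.17 ± 0.25, adjusted p = 4.5e-05), and so did Phka1 (-0.30 ± 0.08, adjusted p = 0.0044). These falls stand beside the lower summed cardiomyocyte markers of WT TAC given above, whose part was not tested.

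**Figure D5:**
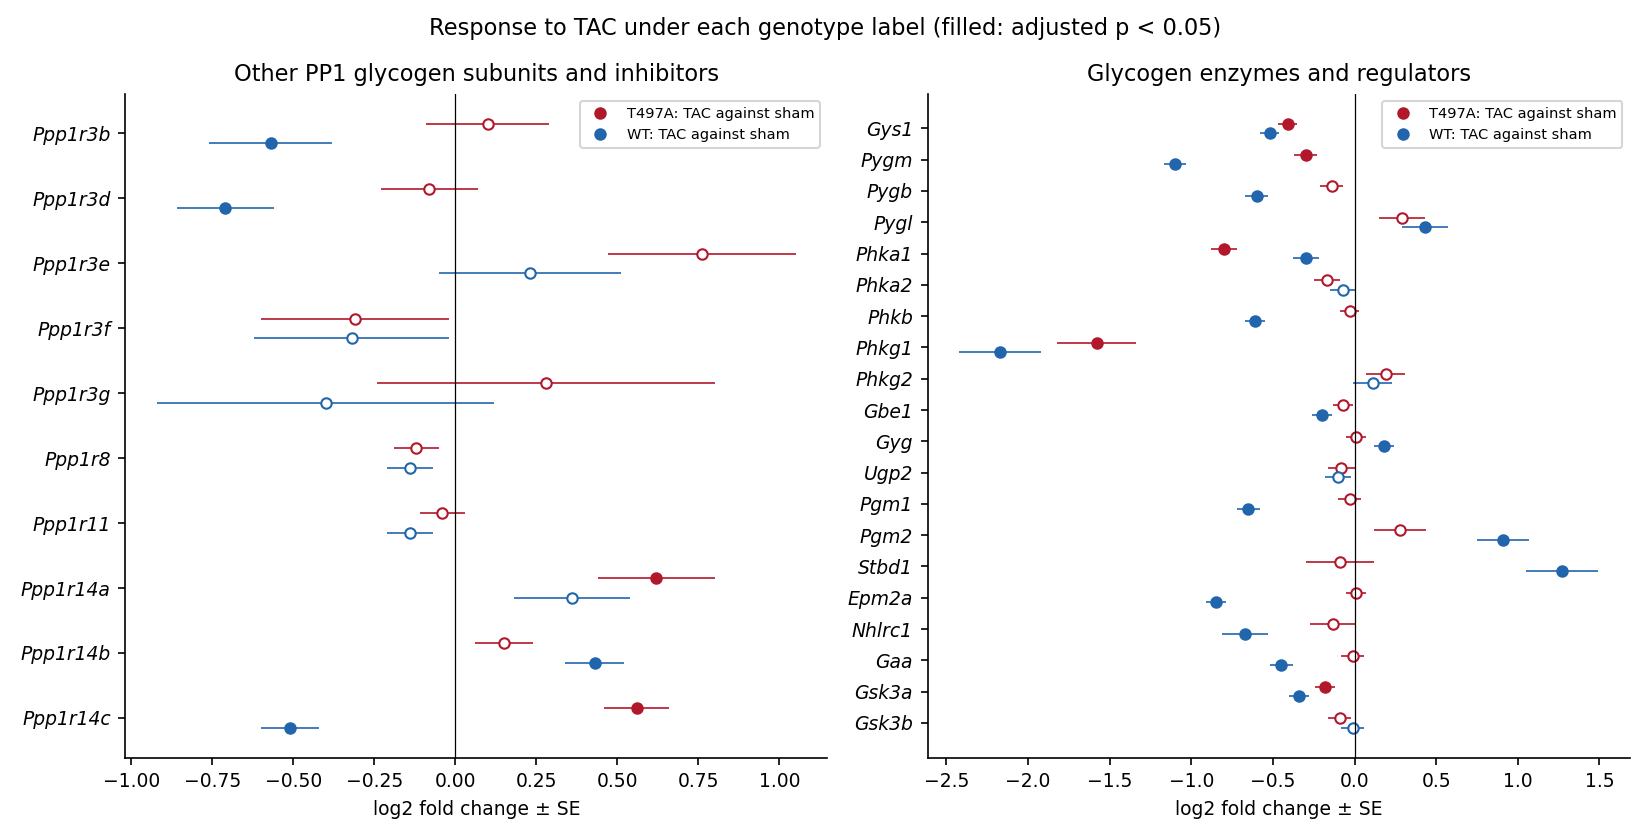
Log2 fold change of TAC over sham with SE (edgeR, n = 3 libraries per group) under the T497A label (red, upper point of each pair) and the WT label (blue, lower point), filled where the adjusted p was under 0.05. Ppp1r14c has its points on opposite sides of 0 (0.56 and -0.51), and Pygm lies at -0.30 in T497A and -1.10 in WT.

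Further targeting and regulatory subunits numbered 26, of which 23 were tested. With TAC, 5 rose and 1 fell in T497A (median 0.01), where 24.4% of all genes were called, and 7 rose and 8 fell in WT (median -0.05), where 49.9% were. Ppp1r18, the actin-binding subunit phostensin, rose in T497A (0.59 ± 0.11, edgeR adjusted p = 0.0017) and in WT (1.14 ± 0.11, adjusted p = 1.5e-06). Phactr1, an actin regulator that binds PP1, rose in T497A (0.64 ± 0.11, adjusted p = 0.00095) and was at 0.03 ± 0.11 in WT (adjusted p = 0.87), with an interaction of 0.61 ± 0.16 (adjusted p = 0.0097) that was 0.31 (adjusted p = 0.15) without TMM factors. Ppp1r9b, the scaffold spinophilin, rose in WT to 125, 125 and 127 CPM, against 70.4, 77.4 and 76.7 CPM in WT sham (0.75 ± 0.07, adjusted p = 5.9e-07), and its relative Ppp1r9a fell (-0.79 ± 0.10, adjusted p = 8.8e-06). Ppp1r12b, the myosin phosphatase subunit of striated muscle, which pairs with the Ppp1cb product, fell in WT (-0.47 ± 0.06, adjusted p = 2.1e-05). Ppp1r13l, which encodes iASPP, had 61.4, 49.7 and 50.3 CPM in T497A TAC, 45.2, 37.6 and 40.5 in T497A sham, 35.2, 35.3 and 33.1 in WT TAC, and 48.7, 49.2 and 46.5 in WT sham. Its interaction was 0.87 ± 0.12 (adjusted p = 0.00014), and its rise in T497A (0.39 ± 0.08, adjusted p = 0.0041) was 0.16 (adjusted p = 0.26) against WT sham.

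A list of 22 genes around inhibitor 1 and the sarcoplasmic reticulum was tested in full. It held kinases with their regulatory subunits and anchors, subunits of the phosphatase calcineurin, and genes of calcium handling and the myofilament. With TAC, 3 rose and 7 fell in T497A (median -0.15), where 24.4% of all genes were called, and 2 rose and 11 fell in WT (median -0.27), where 49.9% were. After TAC 10 were higher and 2 lower in T497A than in WT, where 35.7% of all genes were called. Pln, phospholamban, fell in WT (-1.02 ± 0.11, adjusted p = 4.5e-06), with a T497A value of -0.30 ± 0.11 (adjusted p = 0.066) and an interaction of 0.72 ± 0.16 (adjusted p = 0.0037). Tnni3, cardiac troponin I, fell in T497A (-0.53 ± 0.11, adjusted p = 0.0029) and in WT (-1.36 ± 0.11, adjusted p = 2.7e-07). Atp2a2, the calcium pump that phospholamban restrains, fell in T497A (-0.59 ± 0.10, adjusted p = 0.00073) and in WT (-1.17 ± 0.10, adjusted p = 4.4e-07). Prkar1a, a regulatory subunit of protein kinase A, rose in WT (0.69 ± 0.07, adjusted p = 1.7e-06) and was lower in T497A than in WT after TAC (-0.47 ± 0.07, adjusted p = 0.00012). Akap7, an anchor of that kinase near phospholamban, fell in WT (-0.73 ± 0.08, adjusted p = 2.5e-06). Pln, Tnni3 and Ryr2 of this list are also among the cardiomyocyte markers, and Sln is among the atrial markers.

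The genes whose log2 CPM ran most like each member over the 12 libraries were taken from the 13190 tested genes whose mean was 1 CPM or more. For Ppp1r3a they were Zfp970, Tecrl and Klf15 (Pearson's r = 0.99 each). Klf15, a transcription factor that restrains cardiac growth, had 40.9, 39.2 and 43.1 CPM in T497A TAC, 129, 102 and 114 in T497A sham, 28.7, 22.4 and 29.2 in WT TAC, and 65, 65.6 and 61.2 in WT sham, which puts the groups in the order of Ppp1r3a. For Ppp1cb they were Dnm1l, Lyrm9 and Phf20l1 (0.99 each), and for Ppp1r3c Maz, Plekhg2 and Rras (0.97 each). For Ppp1r1a they were Grin3b, Arpp19 and Ggact (0.93 each). Arpp19, whose product inhibits protein phosphatase 2A, had 85.7, 87.4 and 90.8 CPM in T497A TAC, 83.2, 86.7 and 93 in T497A sham, 73.5, 72.2 and 74.6 in WT TAC, and 93.8, 91.5 and 90.1 in WT sham, lowest in WT TAC as Ppp1r1a was. For the remaining members r was 0.91 to 0.96. Among the members themselves, Ppp1cb and Ppp1r3a had r = 0.89 and Ppp1cb and Ppp1r3c r = -0.88. These likenesses describe libraries that share groups, surgery and scaling.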

How the data were processed

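The authors deposited 1 table of whole-number read counts, not normalized, made, per the submitters' processing notes, with Trim Galore 0.6.4, STAR 2.7.3a and featureCounts (Subread 1.6.3); the notes also name limma 3.50.3 and the builds mm10 and GRCh38 with no role. The labels' protocols give RNeasy RNA, KAPA mRNA HyperPrep libraries and single-end sequencing, and 1 batch for all samples. Groups came from the library names in the labels. Genes were filtered with filterByExpr, scaled by TMM and tested with edgeR 4.0.16 (R 4.3.3; robust quasi-likelihood F test, 1 mean per group over 12 libraries), with Benjamini-Hochberg adjustment over the 17699 genes tested and calls at 0.05. Coordinates and exon lengths are from GENCODE M21 on GRCm38, in which 55141 of 55401 IDs matched without their version. Named genes are all members, Prkca, genes among the up to 4 called genes with the smallest p per list and comparison, and the 3 genes most like each member (log2 CPM with a prior count of 2). Further genes were chosen after their values were seen and stand beside a result they touch. They are Rad9a, the copies, Ppp1r3e, Myl7, Myl4, Bmp10, Nppa, Nr2f2, Sln, Myh6, Actc1, Col1a1, Pdgfra, Lum, Adipoq, Fabp4, Xist and Ddx3y. The members and lists were chosen with earlier results of these data known. Between libraries of a group, chi-square per degree of freedom was 11.4 to 153, so no library was a copy. The test was also run on simulated counts with few genes changed, in both directions. That setting cannot check the scaling where many genes change, as between WT TAC and WT sham. Alternatives were DESeq2 1.42.0 (test and size factors), limma-voom (3.58.1), 2 filters, no TMM factors, a replicate block, mitochondrial and haemoglobin genes removed, other sets of groups, WT sham as baseline, and each library left out. Same-numbered libraries did not deviate together. 1 gene of the glycogen list, counted in its totals, is not reported or drawn here.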

Additional observations from a re-analysis of the deposited data

Results flagged for a closer look

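The response of Ppp1r1a, the inhibitor 1 gene, to TAC differed between the genotype labels in the test of the interaction itself. Its log2 change with TAC was 0.18 ± 0.33 in T497A and -1.48 ± 0.34 in WT, a difference of 1.66 ± 0.47 (edgeR, adjusted p = 0.016), called under all 20 alternatives run for it (adjusted p = 0.0018 to 0.045). The level was higher in T497A TAC than in WT TAC in 3 of 3 libraries against each of 3. It rests on 34 to 117 reads per library and uses the T497A sham libraries, which differ from the others in Xist and Ddx3y. Of 104 autosomal genes far apart between the sham groups, 95 had the opposite sign between the TAC groups. The share among all genes was not computed. These signs bear on the labels that this interaction is built from. The part of the Xist and Ddx3y difference, or of the labels, in the result was not tested.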

How the results depend on the processing

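Among members, Ppp1r1a (fall in WT, difference after TAC, interaction), Ppp1r3a (falls under both labels, difference after sham) and Ppp1r3c (rise in WT) kept their calls under all alternatives run. For the sham difference and the interaction, every alternative kept T497A sham libraries and so could not separate genotype from sex. No alternative changed the genotype labels. The number of members called for the interaction was 1, and 3 with the DESeq2 test, 3 with limma-voom and 5 without TMM factors. Of all genes, 5218, 5773, 6349 and 6869 were called in the same order. With each library left out, 1 to 3 members were called for TAC in T497A and 4 to 6 in WT. For genotype 1 was called after sham and 3 to 4 after TAC, and for the interaction 1 to 2. The ranges for all genes were 2840 to 5152, 7922 to 8994, 505 to 1607, 5266 to 6491 and 4394 to 5283. The replicate number was also used as a block, although same-numbered libraries gave no sign of pairing (correlations of deviations -0.08 to 0.04). With it 2, 4, 1, 4 and 1 members were called in the order of the comparisons above. Of all genes, 4021, 8579, 862, 5994 and 4921 were called with the block. Ppp1r1b lost both TAC calls there (edgeR, adjusted p = 0.071 in each). Without TMM factors these values turned: in WT Ppp1ca 0.22 and Ppp1r2 0.29, after sham Ppp1cc 0.01, after TAC Ppp1ca -0.17, Ppp1cb -0.04 and Ppp1r2 -0.13, and for the interaction Ppp1ca -0.23, Ppp1cb -0.10 and Ppp1r2 -0.17. That setting gave 8466 higher and 1891 lower genes for TAC in WT (4576 and 4255 with TMM) and 1458 and 6874 for genotype after TAC (3156 and 3165). Mitochondrial genes took 9.67 to 14.7% of counts in WT TAC, 19.1 to 21% in WT sham, 19.2 to 19.8% in T497A TAC and 16 to 17.3% in T497A sham. TMM factors were 1.13 to 1.21, 0.91 to 0.934, 0.963 to 0.988 and 0.945 to 0.972 in the same order. Against WT sham, the T497A values turned to -0.22 for Ppp1r1a and -0.01 for Ppp1r14c, and 1773 genes were called (4315 against T497A sham). The genotype difference of Ppp1r1b after TAC was -0.04 with limma-voom. In the edgeR test with TMM factors none of these was called except Ppp1cb after TAC and Ppp1r14c in T497A. The all-gene count for genotype after sham was 1024, 1697 with DESeq2 and 505 to 1607 with a library left out. Leaving out libraries also turned uncalled values: Ppp1r1a in T497A ranged from -0.09 to 0.59, Ppp1r2 in WT from -0.07 to 0.01, Ppp1ca and Ppp1cb after sham from -0.02 and -0.03, the Ppp1r1b interaction from -0.82 to 0.16, the log2 ratio of Ppp1r1a to the catalytic sum in T497A from -0.00566 to 0.689, and the sham differences in the shares of Ppp1ca from -0.498 to 0.638 and of Ppp1cb from -0.361 to 0.765 percentage points. The causes were not tested. Ppp1r1a and Ppp1r1b had 16 to 181 reads per library, and their libraries differed within groups, as with 68, 181 and 176 reads of Ppp1r1b in T497A sham.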
